A study of Mus musculus with 16 samples.

Results

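This comparison asks what an inducible LIN28B adds to tumours that already carry an Apcmin allele, read in 2 organs at once. It sets 9 of the 16 arrays of the series against each other: LIN28B/Apcmin colon tumours (3 arrays), Apcmin colon tumours (2 arrays), LIN28B/Apcmin small intestinal tumours (2 arrays) and Apcmin small intestinal tumours (2 arrays), so 5 arrays against 4 by genotype. The spread behind each test was estimated from 14 arrays in 7 groups, which add wild-type mucosa and small intestinal tumours of older LIN28B mice. The arrays were chosen by their labels, without one LIN28B/Apcmin colon array, titled 1053 Col T2, that carried almost no signal. The LIN28B/Apcmin mice were iLIN28B; Apcmin/+ by genotype and the Apcmin mice Apcmin/+. All 4 groups shared the mixed strain background, doxycycline from an age of 6 to 7 weeks, an age of 3 months and a histology labelled adenoma. The tumours were dissected and snap frozen, and their RNA was read on Illumina mouse bead arrays. What drives the inducible LIN28B, and in which cells, is not given in the sources used here.

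LIN28B is an RNA-binding protein of early development that keeps let-7 microRNAs from maturing, and mRNAs that let-7 normally represses, such as those of the Igf2bp family, are released when it is present. Apc is a scaffold of the complex that destroys beta-catenin. Loss of its second copy in an Apcmin/+ intestinal cell turns on Wnt target genes and starts an adenoma. Intestinal epithelium holds absorptive cells and the secretory goblet, Paneth, enteroendocrine and tuft cells, whose marker genes fall in tumours that differentiate less.

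The mature let-7 family members below are the RNAs that LIN28B is known to act on, shown because the list of genes known as let-7 targets, used further on, is named for them; no seed sites were searched for here. The arrays did not measure microRNAs. The 9 mature sequences, from RefSeq (GRCm38.p6), share 1 seed, bases 2 to 8 from the 5′ end, printed in capitals.
let-7a-5p: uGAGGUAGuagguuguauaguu
let-7b-5p: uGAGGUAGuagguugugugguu
let-7c-5p: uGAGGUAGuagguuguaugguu
let-7d-5p: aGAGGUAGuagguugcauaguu
let-7e-5p: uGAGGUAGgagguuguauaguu
let-7f-5p: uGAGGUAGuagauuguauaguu
let-7g-5p: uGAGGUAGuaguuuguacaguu
let-7i-5p: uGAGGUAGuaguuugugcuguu
miR-98-5p: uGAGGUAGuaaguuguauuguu

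On the 9 arrays 48.3% to 55.7% of probes were detected (detection p under 0.05), and Spearman correlations between arrays ran from 0.694 to 0.949. The organ labels fitted their markers: the summed intensity of 21 small intestinal enterocyte genes was 66770 to 100682 on the small intestinal arrays and 3264 to 3861 on the colon arrays. LIN28B/Apcmin colon replicate 3 had 1985 probe values under 25 that were set to missing, against 9 on replicate 2 and 0 on the other arrays. All 3 LIN28B/Apcmin colon arrays share the title number 2135, and, should such a number mean 1 mouse, the genotype cannot be told apart from that mouse in the colon. The title of LIN28B/Apcmin small intestinal replicate 2 names mucosa beside tumour. By their Xist and Y-linked signals, the 3 LIN28B/Apcmin colon arrays were male and both LIN28B/Apcmin small intestinal arrays female, while each Apcmin group held 1 of each. Values below are normalised log2 intensities, differences are LIN28B/Apcmin minus Apcmin on the log2 scale ± the limma standard error, and p-values are Benjamini-Hochberg adjusted over all 11230 genes tested. Nothing in the labels says that samples of a group were separate animals, so that p-values measure the spread between these samples.

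Across both organs, the genotypes differed in 636 of 11230 genes at an adjusted p under 0.05 (5.66%), of which 301 (2.68%) were higher and 335 (2.98%) lower in LIN28B/Apcmin tumours. The count was 292 when the fit held only the 9 arrays, 86 with genotype plus organ as terms on those 9, and 141 with arrays that share a title number averaged. Of the 636 genes, 608 (5.41%) had the same sign in colon and small intestine and 28 had opposite signs, a split that calling on the mean of both organs favours. In 480 genes (4.27%) the arrays of the genotypes, besides passing the test, did not overlap in either organ. These 480 genes, 238 higher (2.12%) and 242 lower (2.15%), are called shared in what follows. Without regard to the test, 1302 genes (11.6%) had arrays that did not overlap in either organ in 1 direction. Among the shared genes 39 rises and 61 falls were at least 2-fold in each organ. Median scaling in place of quantile normalisation, which moves the median of all genes in the colon to -0.12, left 145 higher and 312 lower over both organs, and 93 rises and 233 falls that were shared. With Apcmin colon replicate 2 left out the count over both organs was 102, and with LIN28B/Apcmin small intestinal replicate 1 left out it was 1074.

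Taken over all genes, the differences in the colon and in the small intestine were only loosely related, with 54.9% of genes on the same side of 0 and a Pearson r of 0.234 (Spearman rho 0.170) across genes, which are not independent replicates. Each organ has its own arrays for both genotypes. In the colon alone 132 genes passed (1.18%), 56 higher (0.499%) and 76 lower (0.677%), and 110 of them (83.3%) had the same sign in the small intestine. In the small intestine alone 507 genes passed (4.51%), 231 higher (2.06%) and 276 lower (2.46%), and 374 of them (73.8%) had the same sign in the colon. Just 26 genes (0.232%) passed in each organ alone with the same sign, which is 19.7% of the colon calls and 5.13% of the small intestinal calls. With Apcmin colon replicate 2 left out the colon had 5 calls and with Apcmin small intestinal replicate 2 left out 186, and leaving out 1 array gave 37 (without LIN28B/Apcmin small intestinal replicate 2) to 1214 (without LIN28B/Apcmin small intestinal replicate 1) in the small intestine. The small intestinal difference was the larger one in 66.3% of the shared genes and in 61.0% of all genes. The median size of the difference among shared genes was 0.78 in the colon and 1.03 in the small intestine.

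**Figure D1:**
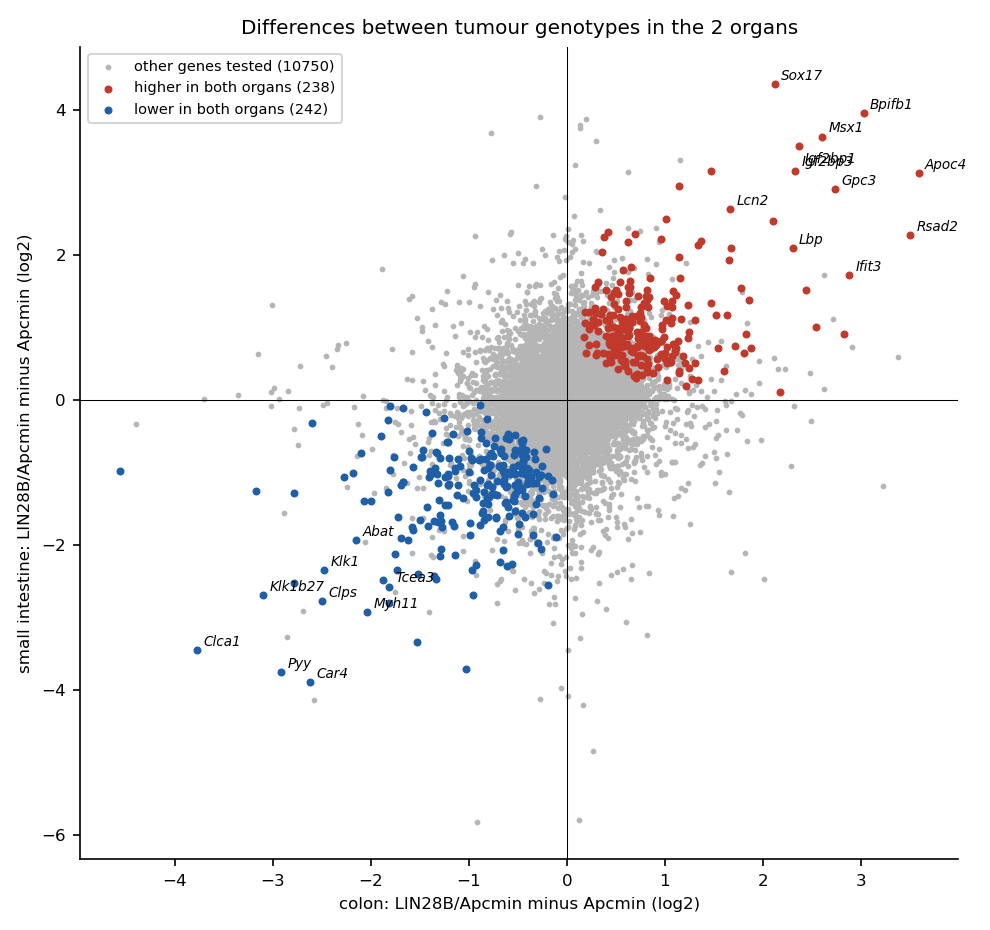
Difference between LIN28B/Apcmin and Apcmin tumours (log2) in the colon (horizontal axis) and in the small intestine (vertical axis), 1 point per gene. The 238 shared rises (red) lie in the upper right and the 242 shared falls (blue) in the lower left by the way they were chosen. The genes named on the plot are from the 15 rises and 15 falls of largest difference in the organ where they differed less.

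Of the 26 genes that passed in each organ alone, 9 were higher (0.0801%) and 17 lower (0.151%), and Clca1 had the largest difference. With sex as a covariate, chosen after seeing the data, 1 gene passed in each organ, with title numbers averaged 6 did, 4 of them among the 26, and with only the 9 arrays in the fit 5 did. Clca1, a protein that goblet cells secrete into mucus, read 8.56, 7.78 and 9.15 on the LIN28B/Apcmin colon arrays, against 12.53 and 11.995 on the Apcmin colon arrays, and 10.14 and 9.56 on the LIN28B/Apcmin small intestinal arrays, against 13.11 and 13.49 on the Apcmin small intestinal arrays. Every LIN28B/Apcmin array was below every Apcmin array, across organs as well as within them. The difference was -3.77 ± 0.61 in the colon, -3.45 ± 0.67 in the small intestine and -3.61 ± 0.45 over both (adjusted p = 0.0209, 0.0238 and 0.00303). Apoc4, an apolipoprotein known chiefly from the liver, was the largest rise and read 9.98, 8.03 and 9.26 in LIN28B/Apcmin colon tumours, against 5.83 and 5.18 in Apcmin colon tumours, and 8.36 and 9.10 in LIN28B/Apcmin small intestinal tumours, against 4.53 and 6.67 in Apcmin small intestinal tumours. No array of either genotype reached those of the other, and the difference over both organs was 3.36 ± 0.46 (adjusted p = 0.00393). Lbp, the protein that binds bacterial lipopolysaccharide, read 7.33, 8.37 and 8.84 on the LIN28B/Apcmin colon arrays, against 5.62 and 6.14 on the Apcmin colon arrays, and 7.21 and 7.46 on the LIN28B/Apcmin small intestinal arrays, against 5.04 and 5.45 on the Apcmin small intestinal arrays. Its groups were apart in each organ by 2.30 ± 0.36 and 2.09 ± 0.40, in colon and in small intestine (adjusted p = 0.0198 and 0.0223). Thsd1, a membrane protein with a thrombospondin repeat, was the other named rise that passed in each organ, at 1.66 ± 0.21 over both.

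The falls that passed in each organ reached beyond mucus genes. Tcea3, a transcription elongation factor, read 5.64, 5.10 and 5.73 in LIN28B/Apcmin colon tumours, against 7.12 and 7.49 in Apcmin colon tumours, and 6.47 and 5.88 in LIN28B/Apcmin small intestinal tumours, against 9.11 and 8.37 in Apcmin small intestinal tumours. The groups did not overlap in either organ, and the difference was -2.19 ± 0.21 over both organs (adjusted p = 0.00168). Abat, the enzyme that breaks down the transmitter GABA, differed by -2.15 ± 0.37 in the colon and -1.93 ± 0.41 in the small intestine, though another of its probes was near 0 (-0.13 over both organs). Clps, the cofactor of pancreatic lipase, read 8.87, 7.40 and 7.82 on the LIN28B/Apcmin colon arrays, against 10.16 and 10.88 on the Apcmin colon arrays, and 9.13 and 9.98 on the LIN28B/Apcmin small intestinal arrays, against 11.89 and 12.78 on the Apcmin small intestinal arrays. Its lowest Apcmin colon array, replicate 1, stood just above the higher of the LIN28B/Apcmin small intestinal arrays, while within each organ the groups were more than 1 log2 unit apart. Laptm4a, a lysosomal membrane protein, and Oxct1, which burns ketone bodies, lie outside the rule that chose the named genes and were picked after their values were seen. Laptm4a differed by -1.72 ± 0.22 in the colon, on the arrays that kept its value, and -1.61 ± 0.22 in the small intestine. Oxct1 differed by -1.29 ± 0.25 and -2.15 ± 0.28 in the same order. When 1 of the 14 arrays in the fit was left out, the number of genes passing in each organ alone was lowest, 0, for Apcmin colon replicate 2 and highest, 46, for Apcmin small intestinal replicate 2. Clca1, Apoc4, Lbp, Thsd1, Tcea3, Abat and Clps kept the call over both organs in each of the 9 runs that left out 1 of the arrays compared.

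**Figure D2:**
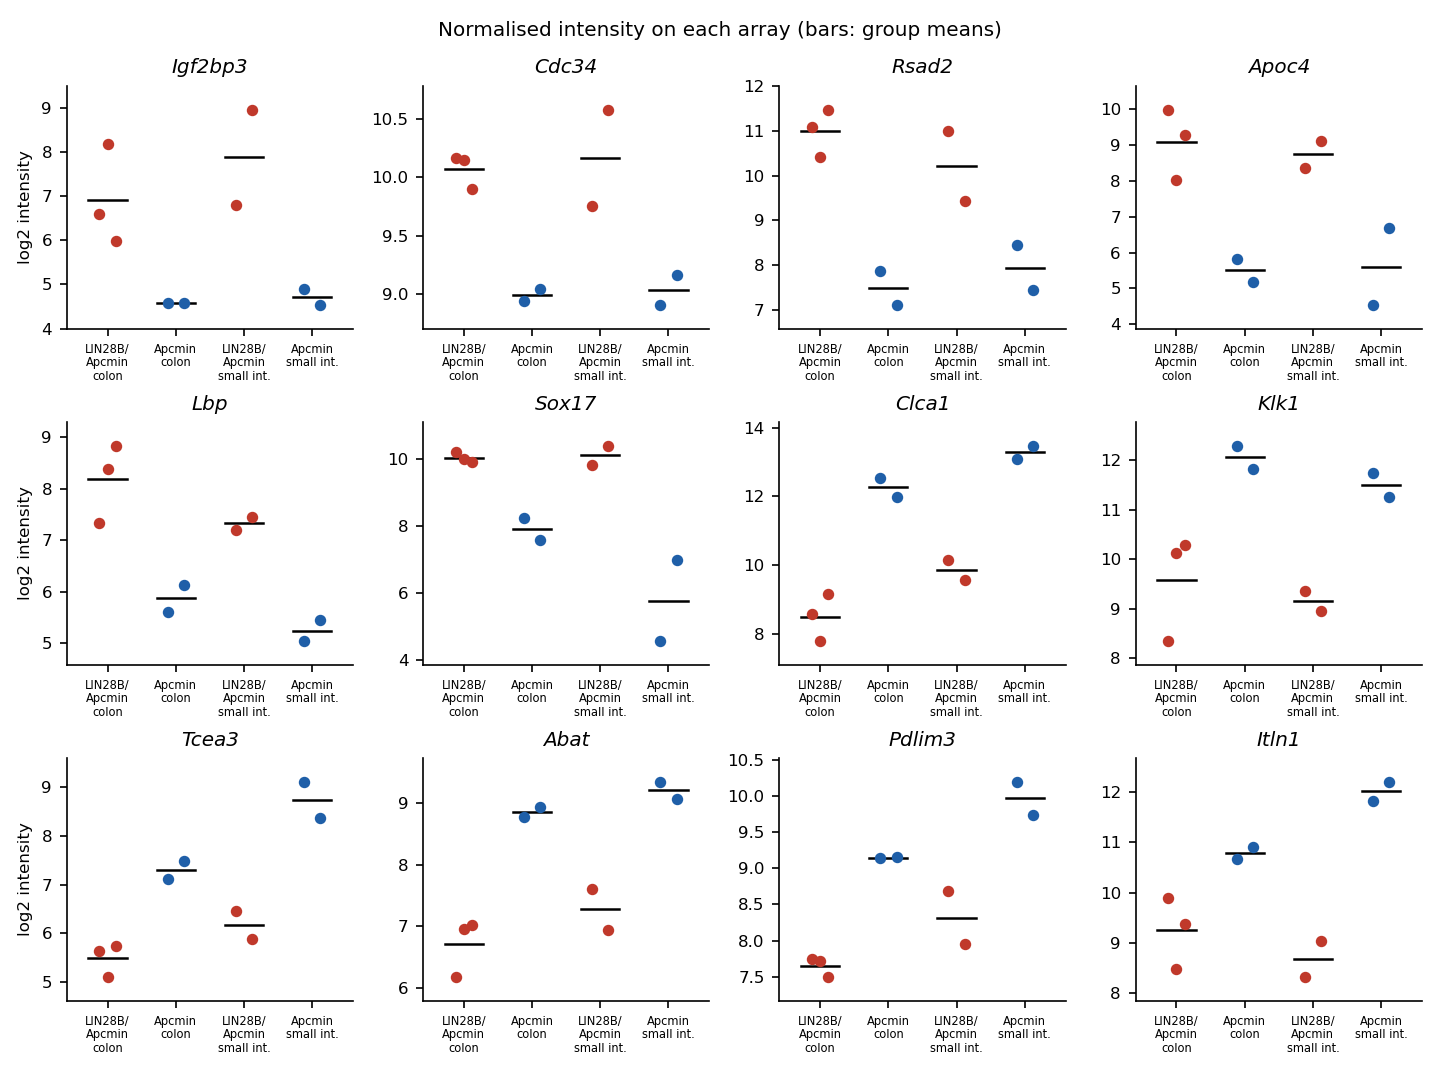
Normalised log2 intensity on each of the 9 arrays for 12 named genes, with LIN28B/Apcmin (red) left of Apcmin (blue) in colon and then small intestine, and bars at group means. All 12 are shared genes, so that the red and blue points of an organ do not overlap by the way they were chosen. Vertical axes differ between panels, and levels of different genes cannot be set against each other.

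Some genes of the let-7 target list rose. This list and those below were chosen with earlier results of these data known, so that their counts only describe these arrays. Of 28 measured members, 8 rose over both organs, 0 fell and 20 did not pass, and all 8 were shared, against 2.12% of all genes that were shared rises. In the colon alone 2 passed and in the small intestine alone 5, all higher. The 8 became 3 with title numbers averaged. The list's median difference was 0.49 over both organs, 0.31 in the colon and 0.62 in the small intestine, beside 0.012, 0.00086 and 0.026 over all genes tested. Of the members, 17 were higher in both organs and 4 lower in both, passed or not. Of all 11230 genes 3211 were higher and 2951 lower in both.

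Igf2bp1 and Igf2bp3, fetal RNA-binding proteins that stabilise growth-related mRNAs, stood furthest apart on this list. Igf2bp3 read 6.59, 8.17 and 5.98 in LIN28B/Apcmin colon tumours, against 4.59 and 4.58 in Apcmin colon tumours, and 6.79 and 8.96 in LIN28B/Apcmin small intestinal tumours, against 4.90 and 4.52 in Apcmin small intestinal tumours. It was detected on all 5 LIN28B/Apcmin arrays and on 1 of the 4 Apcmin arrays, and its difference was at least 4.28-fold in the colon and 3.16 ± 0.70 in the small intestine (adjusted p over both organs = 0.0111). Igf2bp1 read 8.27 and 5.03 on the LIN28B/Apcmin colon arrays that kept its value, against 4.26 and 4.30 in Apcmin colon tumours, and 7.27 and 8.30 in LIN28B/Apcmin small intestinal tumours, against 4.30 and 4.27 in Apcmin small intestinal tumours. All 4 Apcmin readings were undetected, so that the rise in the small intestine is given as a bound, at least 8.04-fold (adjusted p over both organs = 0.0211). On the colon arrays that kept a value it was at least 3.57-fold. That figure leaves out the LIN28B/Apcmin colon array whose signal was under 25, and a low reading there would make it smaller. The absence of overlap in the colon leaves out that array too. Between the LIN28B/Apcmin colon arrays the readings of Igf2bp1 lay over 3 log2 units apart. Without Apcmin colon replicate 2 the call for Igf2bp1 over both organs was lost (adjusted p = 0.0877).

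The other let-7 targets that rose were of smaller and more even difference. Cdc34, a ubiquitin-conjugating enzyme of the cell cycle, read 10.16, 10.14 and 9.89 on the LIN28B/Apcmin colon arrays, against 8.94 and 9.04 on the Apcmin colon arrays, and 9.75 and 10.58 on the LIN28B/Apcmin small intestinal arrays, against 8.90 and 9.16 on the Apcmin small intestinal arrays. Its difference was nearly the same in each organ, 1.07 ± 0.24 and 1.13 ± 0.27 (adjusted p over both = 0.00874), and it kept the call in all 9 runs that left out 1 of the arrays. Arid3a and Arid3b, DNA-binding regulators that share a domain, rose by 0.88 ± 0.20 and 0.84 ± 0.15 over both organs, the transcriptional repressor E2f6 by 0.82 ± 0.15, the zinc finger factor Plagl2 by 0.80 ± 0.14 and the TGF-beta receptor Tgfbr1 by 0.77 ± 0.17 (adjusted p from 0.0114 to 0.0334). A further Tgfbr1 probe gave 0.033. Arid3b read 6.88, 6.82 and 6.83 in LIN28B/Apcmin colon tumours, against 5.80 and 5.75 in Apcmin colon tumours, and 6.82 and 7.22 in LIN28B/Apcmin small intestinal tumours, against 6.12 and 6.69 in Apcmin small intestinal tumours. The 3 LIN28B/Apcmin colon arrays were within 0.1 of each other, and the lowest LIN28B/Apcmin small intestinal array stood only just above the highest Apcmin one. The probes for Hmga2 and Lin28a, further names in this pathway, were detected on 0 of the arrays, and Myc, Nras, Igf1r and Ccnd1 did not pass (0.24 ± 0.19, 0.44 ± 0.14, -0.44 ± 0.16 and 0.61 ± 0.27). Leaving out 1 of the 9 arrays left between 2 (Apcmin colon replicate 1 left out) and 10 (Apcmin small intestinal replicate 2 left out) of the list higher and 0 lower. Median scaling left 4 of them called, all higher.

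Of 25 measured Wnt target genes, which loss of Apc turns on, 3 rose and 1 fell over both organs, all of them shared. Of all genes 2.12% were shared rises and 2.15% shared falls. The list's median difference was 0.24. Of the members, 18 were higher and 5 lower in both organs, passed or not, against 3211 and 2951 of all 11230 genes. Its summed intensity was 19590 to 27561 in LIN28B/Apcmin colon tumours, against 15822 to 16477 in Apcmin colon tumours, and 10143 to 10758 in LIN28B/Apcmin small intestinal tumours, against 6587 to 7962 in Apcmin small intestinal tumours. Axin2, the feedback inhibitor that is a standard readout of the pathway, read 11.95, 11.65 and 11.71 on the LIN28B/Apcmin colon arrays, against 11.23 and 11.28 on the Apcmin colon arrays, and 10.27 and 10.77 on the LIN28B/Apcmin small intestinal arrays, against 9.82 and 9.80 on the Apcmin small intestinal arrays. The arrays did not overlap in either organ, but the difference of 0.61 ± 0.15 was under 2-fold (adjusted p = 0.038). Tnfrsf19, a receptor of stem cells, rose by 1.79 ± 0.45 and Prox1, a transcription factor of intestinal tumours, by 2.05 ± 0.52 (adjusted p = 0.0496 and 0.0479). These calls held in 1 (Tnfrsf19), 2 (Prox1) and 1 (Axin2) of the 9 runs that left out 1 array. Another probe gave 0.07 in the small intestine for Tnfrsf19, and another gave 0.057 in the colon for Prox1. Nkd2, a Wnt antagonist, fell by 0.69. Notum, a secreted enzyme that inactivates Wnt proteins, differed by 1.89 ± 0.52 and did not pass (adjusted p = 0.0576). Between 0 (Apcmin colon replicate 1 left out) and 6 (without Apcmin small intestinal replicate 2) of the list rose when 1 of the 9 arrays was left out, and 0 rose under median scaling.

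Lgr5, the receptor that marks crypt stem cells, stood on opposite sides of 0 in the organs and passed in neither. It read 7.56, 6.95 and 8.14 in LIN28B/Apcmin colon tumours, against 9.28 and 9.59 in Apcmin colon tumours, and 8.82 and 8.39 in LIN28B/Apcmin small intestinal tumours, against 6.14 and 7.47 in Apcmin small intestinal tumours. In the colon every LIN28B/Apcmin array was below the Apcmin arrays (-1.89, adjusted p = 0.0902), and in the small intestine every one was above (1.80, adjusted p = 0.068), for a difference over both organs of -0.04 ± 0.35 (adjusted p = 0.957). Mex3a, an RNA-binding protein of slowly cycling stem cells, rose by 1.15 ± 0.19 (adjusted p = 0.00915), while its other probe gave 0.07. It was, with Axin2 and Tnfrsf19, 1 of 3 rises over both organs among 20 intestinal stem cell genes, of which 0 fell. The list as a whole did not rise, with medians of -0.0031 over both organs, -0.19 (colon) and 0.20 (small intestine). Of its members 7 were higher and 5 lower in both organs, passed or not. Its summed colon intensity was lower for LIN28B/Apcmin, at 14567 to 18072 against 21008 to 22038 for Apcmin. The small intestinal sums overlapped, at 11752 to 13773 for LIN28B/Apcmin against 12536 to 13166 for Apcmin. Apc itself did not pass over both organs (0.06 ± 0.19, adjusted p = 0.892), and Igf2, a fetal growth factor, stood at -0.35 ± 0.34 (adjusted p = 0.579). Of 25 proliferation genes 0 rose and 0 fell by limma, with a median of -0.025 in the colon and 0.77 in the small intestine, and the lowest adjusted p over both organs was 0.102. Without Apcmin small intestinal replicate 2, 4 of them rose.

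A part of the goblet cell genes fell. Of 20 measured members 9 fell over both organs, 0 rose and 11 did not pass, and all 9 were shared, against 2.15% of all genes that were shared falls. In the colon alone 5 fell and in the small intestine alone 2, and 5 fell over both organs with title numbers averaged. The list's median was -0.87 over both organs, -1.04 in the colon and -0.92 in the small intestine. Of its members 16 were lower in both organs and 0 higher, passed or not, against 2951 lower and 3211 higher of all 11230 genes. In bulk tissue fewer cells of a type and less RNA per cell cannot be told apart. Beside Clca1, the kallikrein protease Klk1 read 8.34, 10.14 and 10.29 on the LIN28B/Apcmin colon arrays, against 12.30 and 11.82 on the Apcmin colon arrays, and 9.36 and 8.95 on the LIN28B/Apcmin small intestinal arrays, against 11.74 and 11.26 on the Apcmin small intestinal arrays. Within each organ its groups were over 1 log2 unit apart, and its paralogs Klk1b5 and Klk1b27 fell with it, at -2.65 ± 0.41 and -2.89 ± 0.40. Cross-reaction between these near-identical genes was not tested, and another probe for Klk1b5 gave a difference near 0.

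Further goblet cell genes fell with them. Zg16, a lectin of the mucus layer, read 12.07, 12.34 and 12.70 in LIN28B/Apcmin colon tumours, against 14.24 and 14.02 in Apcmin colon tumours, and 13.88 and 13.69 in LIN28B/Apcmin small intestinal tumours, against 14.54 and 14.59 in Apcmin small intestinal tumours. The colon difference was -1.76 ± 0.21 and the small intestinal one -0.78 ± 0.23 (adjusted p over both = 0.00282). Rep15, which regulates vesicle recycling, fell by 1.66 over both organs, and Tff3, the trefoil peptide of goblet cells, by 0.75, with -1.25 ± 0.21 in the colon and -0.24 ± 0.23 in the small intestine. Spdef and Creb3l1, transcription factors of secretory cells, fell by 1.08 and 1.06, the synaptotagmin-like Sytl2 by 1.43 and Bcas1 by 1.40. No test of the difference between organs passed for a goblet cell gene. Between 4 (without Apcmin colon replicate 1) and 11 (without Apcmin small intestinal replicate 2) of the list fell when 1 of the 9 arrays was left out.

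Some enteroendocrine genes, which encode gut hormones and granule proteins, also fell. Of 24 measured members 10 fell over both organs and 0 rose, against 2.98% of all genes that fell. Of these 10, 8 were shared (2.15% of all genes). In the colon alone 2 fell and in the small intestine alone 8, with medians of -0.36 and -1.41. Gcg, which encodes glucagon-like peptides, read 4.60, 4.98 and 5.27 on the LIN28B/Apcmin colon arrays, against 6.97 and 6.68 on the Apcmin colon arrays, and 4.55 and 4.93 on the LIN28B/Apcmin small intestinal arrays, against 6.57 and 7.87 on the Apcmin small intestinal arrays. It was undetected in LIN28B/Apcmin small intestinal tumours, where it was at least 4.97-fold lower, and it differed by -1.88 ± 0.46 in the colon (adjusted p over both = 0.00748). Pyy, the satiety hormone peptide YY, read 5.68, 9.49 and 9.44 in LIN28B/Apcmin colon tumours, against 11.23 and 10.999 in Apcmin colon tumours, and 5.28 and 4.48 in LIN28B/Apcmin small intestinal tumours, against 8.85 and 8.41 in Apcmin small intestinal tumours. LIN28B/Apcmin colon replicate 1 was far below its fellow arrays for Pyy, and the call over both organs (adjusted p = 0.0216) held in 5 of the 9 runs that left out 1 array. Resp18, a protein of secretory granules, was undetected on all 5 LIN28B/Apcmin arrays and detected on all 4 Apcmin arrays, at least 2.45-fold lower in the colon and at least 2.56-fold lower in the small intestine. Somatostatin (Sst), secretogranin (Scg2), the serotonin synthesis enzyme Tph1 and synaptophysin (Syp) fell as well, each undetected in LIN28B/Apcmin colon tumours (adjusted p over both organs from 0.0136 to 0.0352). Gip, the incretin of the upper intestine, fell by 0.99 over both organs, yet it differed by -0.08 ± 0.19 in the colon and -1.91 ± 0.21 in the small intestine, and that contrast between organs itself passed. Leaving out 1 array gave between 3 (Apcmin colon replicate 1) and 13 (Apcmin small intestinal replicate 2) falls in this list, and averaging title numbers gave 4.

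Of the Paneth cell genes 4 fell in the small intestine alone and 0 passed in the colon alone. Over both organs 4 of 15 measured members fell and 0 rose, against 2.98% of all genes that fell. Of these 4, 2 were shared (2.15% of all genes), and the list's median was -0.16 in the colon and -1.60 in the small intestine. Itln1, an intelectin that binds microbial sugars, read 9.90, 8.49 and 9.38 on the LIN28B/Apcmin colon arrays, against 10.67 and 10.90 on the Apcmin colon arrays, and 8.31 and 9.04 on the LIN28B/Apcmin small intestinal arrays, against 11.82 and 12.21 on the Apcmin small intestinal arrays. The groups did not overlap in either organ, and the difference was -2.43 ± 0.27 (adjusted p = 0.00168). Ang4, an antimicrobial ribonuclease, differed by -5.82 ± 0.96 in the small intestine, but in the colon the 3 LIN28B/Apcmin arrays read 12.38, 8.76 and 9.87 around the Apcmin arrays at 11.03 and 11.47. Of 17 tuft cell genes 4 fell over both organs and 0 rose, against 2.98% of all genes that fell, and 2 of the 4 were shared. Among the 4 were the kinase Dclk1 (adjusted p = 0.0201) and the channel regulator Kctd12 (-1.41 ± 0.29). In the colon alone 0 tuft cell genes passed and in the small intestine alone 9 fell, with medians of -0.011 and -1.02. The test of the difference between organs passed for 1 of the 17. The summed tuft cell intensity overlapped between genotypes in both organs. It was 1553 to 2203 for LIN28B/Apcmin against 1653 to 1747 for Apcmin in the colon. In the small intestine it was 1420 to 2145 for LIN28B/Apcmin against 1450 to 2442 for Apcmin. Klf4, a transcription factor of differentiated epithelium, fell by 1.17 (adjusted p = 0.00587), with -0.48 in the colon and -1.87 in the small intestine. The Notch target Hey1 rose by 1.56 ± 0.34. Of 20 measured Notch and secretory fate genes 1 rose and 2 fell over both organs, against 2.68% and 2.98% of all genes. Of these, 0 rises and 1 fall were shared. The median of that list was -0.023, and 7 members were higher and 8 lower in both organs, passed or not. Of absorptive genes, 0 of 21 in the small intestinal enterocyte list were called in either direction by limma, with a median of -0.25. In the colonocyte list 4 of 23 fell over both organs (Car4, Mptx1, Saa1 and Tgm3) and 0 rose, against 2.98% of all genes that fell. In the colon alone 4 fell and in the small intestine alone 0, and the median over both was -0.66. Of the members 13 were lower and 2 higher in both organs, against 2951 and 3211 of all 11230 genes. Between 2 (Apcmin colon replicate 1 left out) and 6 (LIN28B/Apcmin colon replicate 1 left out) of the colonocyte list fell when 1 of the 9 arrays was left out.

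**Figure D3:**
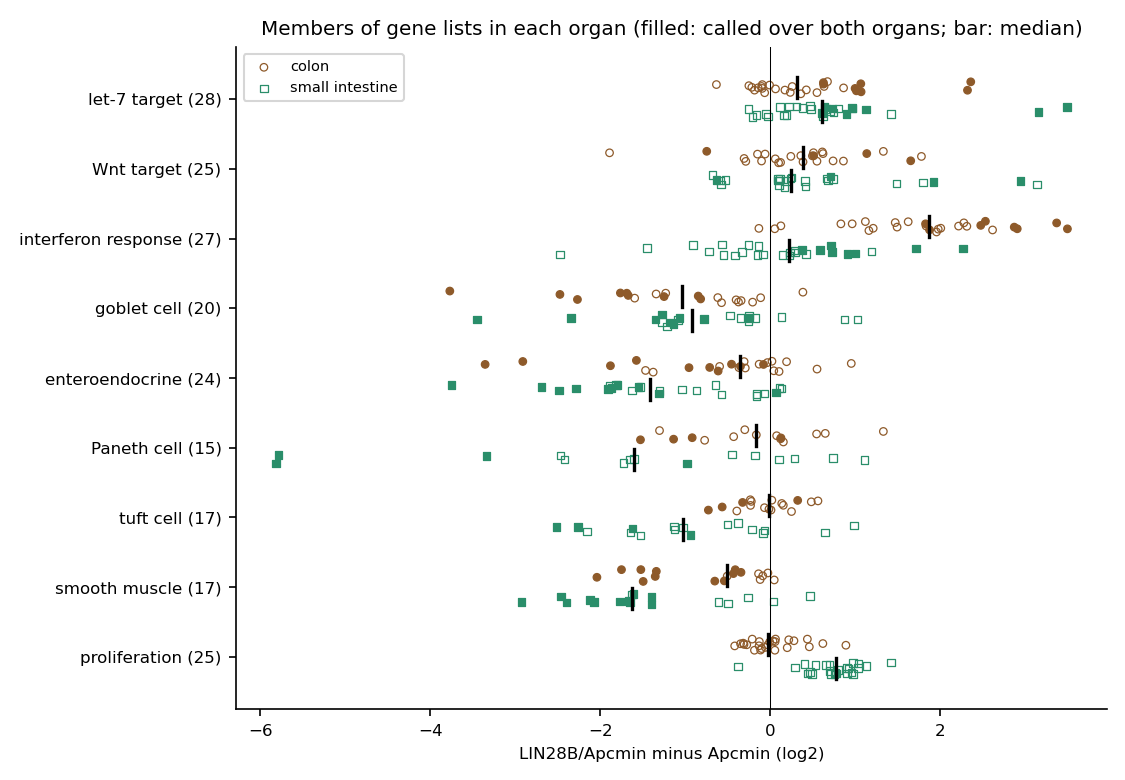
Differences between LIN28B/Apcmin and Apcmin tumours (log2) of the members of 9 gene lists, with the number measured in brackets, in colon (brown circles, upper row of each list) and small intestine (green squares, lower row). Filled marks passed over both organs and black bars are medians. The medians of the 2 organs lie on 1 side of 0 in every list but proliferation (-0.025 in the colon and 0.77 in the small intestine). The interferon response median is 1.88 in the colon and 0.23 in the small intestine. The tuft cell median is near 0 in the colon (-0.011) and -1.02 in the small intestine.

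Some interferon response genes rose. Of 27 measured members 8 rose over both organs and 0 fell, against 2.68% of all genes that rose, and 5 of the 8 were shared (2.12% of all genes). The 8 became 3 with title numbers averaged and 4 with no signal set to missing. In the colon alone 9 rose (0.499% of all genes), and in the small intestine alone 0 passed, while the median was 1.88 in the colon and 0.23 in the small intestine. Rsad2 (viperin), an antiviral enzyme, read 11.08, 10.41 and 11.48 in LIN28B/Apcmin colon tumours, against 7.87 and 7.10 in Apcmin colon tumours, and 10.99 and 9.43 in LIN28B/Apcmin small intestinal tumours, against 8.44 and 7.44 in Apcmin small intestinal tumours. Its groups did not overlap in either organ, and the difference was 3.50 ± 0.53 in the colon (adjusted p = 0.0172) and 2.27 ± 0.58 in the small intestine (adjusted p = 0.0508). Ifit3, which binds foreign RNA in a complex with its relatives, read 10.30, 10.49 and 11.10 on the LIN28B/Apcmin colon arrays, against 7.99 and 7.51 on the Apcmin colon arrays, and 10.60 and 8.94 on the LIN28B/Apcmin small intestinal arrays, against 8.29 and 7.81 on the Apcmin small intestinal arrays. Of the LIN28B/Apcmin small intestinal arrays, replicate 1 was the higher one for both genes.

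The 3 interferon genes that rose but were not shared overlapped in the small intestine. Oas2, an RNA sensor, read 7.26 and 5.62 in LIN28B/Apcmin small intestinal tumours, against 6.18 and 5.51 in Apcmin small intestinal tumours. Ifit2, a relative of Ifit3, read 7.56 and 5.41 in LIN28B/Apcmin, against 5.76 and 5.74 in Apcmin small intestinal tumours. Usp18, which removes the ubiquitin-like Isg15, read 9.17 and 7.78 in LIN28B/Apcmin, against 8.01 and 8.19 in Apcmin small intestinal tumours. In all 3 genes replicate 2 lay within or below the Apcmin arrays. Mx2, an antiviral GTPase, was the interferon gene with the lowest adjusted p over both organs (1.77 ± 0.23, adjusted p = 0.00314), and Rtp4 (1.30 ± 0.23) and Oas1g (1.37 ± 0.32) were shared with it, the last read by a probe with paralogs not tested for cross-reaction. The test of the difference between organs passed for 1 of the 27, Oasl1, which was 2.28 in the colon and -0.90 in the small intestine. Between 3 (without Apcmin colon replicate 2) and 7 (without LIN28B/Apcmin colon replicate 1) of the list rose when 1 of the 9 arrays was left out.

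Promoters of the shared interferon genes were read because these members moved together. The RefSeq table (GRCm38.p6) holds 3 of them, each from 250 bases before to 50 after the annotated start and given on the strand of the gene, while Mx2 and Rtp4 are named only. Capitals mark the letters GAAA, any 2 bases and GAAA again, or on the other strand TTTC, any 2 bases and TTTC, the core of the element that interferon-activated factors bind.
Rsad2 (chr12:26456403-26456702, minus strand): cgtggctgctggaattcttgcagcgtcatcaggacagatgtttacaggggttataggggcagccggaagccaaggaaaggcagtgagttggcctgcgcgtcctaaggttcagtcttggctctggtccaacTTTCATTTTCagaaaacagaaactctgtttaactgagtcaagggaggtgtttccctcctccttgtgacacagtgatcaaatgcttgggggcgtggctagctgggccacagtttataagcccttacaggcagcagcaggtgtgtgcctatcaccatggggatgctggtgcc
Ifit3 (chr19:34583279-34583578, plus strand): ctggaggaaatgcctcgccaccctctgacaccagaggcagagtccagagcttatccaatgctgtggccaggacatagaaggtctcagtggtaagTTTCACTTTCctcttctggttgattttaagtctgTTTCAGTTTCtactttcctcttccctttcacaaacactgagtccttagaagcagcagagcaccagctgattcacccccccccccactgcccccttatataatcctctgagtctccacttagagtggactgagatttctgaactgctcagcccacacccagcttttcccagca
Oas1g (chr5:120887564-120887863, minus strand): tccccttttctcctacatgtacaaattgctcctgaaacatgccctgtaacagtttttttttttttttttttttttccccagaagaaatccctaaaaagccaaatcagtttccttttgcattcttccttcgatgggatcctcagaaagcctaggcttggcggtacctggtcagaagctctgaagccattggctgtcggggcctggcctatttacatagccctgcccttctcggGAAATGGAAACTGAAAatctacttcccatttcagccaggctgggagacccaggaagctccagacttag
Rsad2 held 1 match, Ifit3 2 and Oas1g 2 that overlap. Searched on both strands, the letters stood in 1131 of the 32851 promoters of the table (3.44%). They stood in 3.74% of 9079 genes tested that have a promoter there, in 7.53% of 186 shared rises and in 3.68% of 190 shared falls. In the interferon response list 14 of the 19 genes with a promoter held them, called or not. A match is a description of these letters and no evidence of binding.

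Reg3b, a lectin that kills bacteria, read 11.63, 12.90 and 12.81 in LIN28B/Apcmin colon tumours, against 10.12 and 10.57 in Apcmin colon tumours, and 14.54 and 14.26 in LIN28B/Apcmin small intestinal tumours, against 10.97 and 12.90 in Apcmin small intestinal tumours. The arrays did not overlap in either organ, yet the call (adjusted p = 0.0445) held in 2 of the 9 runs that left out 1 array, and another probe gave 0.39 in the colon. Lcn2, which withholds iron from bacteria, rose by 2.15 ± 0.55 and Bpifb1, a secreted protein of mucosal surfaces, by 3.49 ± 0.87. For each, 1 Apcmin small intestinal array was within 1 log2 unit (Lcn2, 9.04) or 0.5 (Bpifb1, 9.86) of the nearest LIN28B/Apcmin array (9.68 and 10.22). The calls (adjusted p = 0.0475 for Lcn2 and 0.0439 for Bpifb1) held in 1 and 2 of the 9 runs, in that order. Both were lost with title numbers averaged (adjusted p = 0.194 and 0.180). The neutrophil protein S100a9 (1.56 ± 0.40) and the neutrophil-attracting Cxcl1 (2.31 ± 0.40) were the 2 of 20 myeloid genes that rose, and 0 fell. Of all genes 2.68% rose. The calls (adjusted p = 0.0470 for S100a9 and 0.0110 for Cxcl1) held in 2 and 7 of the 9 runs, in that order. Both were lost with title numbers averaged (adjusted p = 0.199 and 0.0668). The summed myeloid intensity was 20094 to 24764 in LIN28B/Apcmin colon tumours, against 12121 to 19235 in Apcmin colon tumours, and 2093 to 2612 in LIN28B/Apcmin small intestinal tumours, against 1667 to 3064 in Apcmin small intestinal tumours. The part of immune cells in these rises was not tested.

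Sox17, the transcription factor that specifies endoderm, read 10.22, 10.001 and 9.90 on the LIN28B/Apcmin colon arrays, against 8.25 and 7.58 on the Apcmin colon arrays, and 9.84 and 10.41 on the LIN28B/Apcmin small intestinal arrays, against 4.54 and 6.98 on the Apcmin small intestinal arrays. The LIN28B/Apcmin arrays of both organs lay within 0.6 of each other, all above the Apcmin arrays, and the difference was 3.24 ± 0.44 (adjusted p = 0.00393). Sox17 also stands on the endothelial list, of which 1 of 16 measured members rose and 1, Emcn, fell (-0.86 ± 0.22), and the summed intensity of that list overlapped between genotypes in both organs. Msx1, a homeobox factor of embryonic tissues, read 9.92, 7.51 and 6.49 in LIN28B/Apcmin colon tumours, against 5.44 and 5.30 in Apcmin colon tumours, and 8.96 and 10.86 in LIN28B/Apcmin small intestinal tumours, against 5.22 and 7.33 in Apcmin small intestinal tumours. Gpc3, a cell surface proteoglycan of fetal liver and its tumours, read 9.94, 6.68 and 7.18 on the LIN28B/Apcmin colon arrays, against 5.16 and 5.24 on the Apcmin colon arrays, and 8.41 and 9.94 on the LIN28B/Apcmin small intestinal arrays, against 7.003 and 5.52 on the Apcmin small intestinal arrays. Both genes were high on 1 LIN28B/Apcmin colon array, replicate 1, and held the call in 5 (Msx1) and 6 (Gpc3) of the 9 runs that left out 1 array. Plekhs1, a pleckstrin homology domain protein, rose by 1.89 ± 0.26 and kept its call in each of these runs. Of 14 genes of fetal and regenerating epithelium 1 rose over both organs, the surface protein mesothelin (Msln, adjusted p = 0.0211), and 0 fell. The organs went apart, with medians of -0.35 (colon) and 0.75 (small intestine). By single organ, 2 fell in the colon and 1 rose in the small intestine, and 2 passed for the difference between organs. Summed intensity was 20744 to 22471 on the LIN28B/Apcmin colon arrays, against 31170 to 31726 for Apcmin. The small intestinal sums overlapped, at 15543 to 19652 for LIN28B/Apcmin against 8029 to 15685 for Apcmin.

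Many smooth muscle genes fell in LIN28B/Apcmin tumours. Of 17 smooth muscle genes 11 fell over both organs and 0 rose, against 2.98% of all genes that fell. Of these 11, 9 were shared (2.15% of all genes). In the colon alone 1 fell and in the small intestine alone 9, with medians of -0.50 and -1.62. Pdlim3, an actinin-binding protein of muscle, read 7.74, 7.72 and 7.49 in LIN28B/Apcmin colon tumours, against 9.14 and 9.15 in Apcmin colon tumours, and 8.68 and 7.96 in LIN28B/Apcmin small intestinal tumours, against 10.20 and 9.73 in Apcmin small intestinal tumours. Its groups were apart in each organ (adjusted p = 0.0172 in colon and 0.00847 in small intestine). The smooth muscle actin Actg2 (-1.93 ± 0.30), desmin (Des, -1.96 ± 0.33) and the smooth muscle myosin Myh11 (-2.48 ± 0.59) fell as well, and so did the matrix proteoglycans Prelp (-1.80 ± 0.27) and Ogn (-2.31 ± 0.51), the probes of the last disagreeing. Myh11 read 8.67 and 4.80 on the LIN28B/Apcmin small intestinal arrays, and without replicate 2 its difference was -1.50 (adjusted p = 0.00845). The call for Myh11 held in 3 of the 9 runs that left out 1 array, with an adjusted p of up to 0.122, and was lost with title numbers averaged (adjusted p = 0.176). Between 3 (without Apcmin colon replicate 1) and 12 (without LIN28B/Apcmin small intestinal replicate 1) of the list fell when 1 of the 9 arrays was left out, and 3 fell with title numbers averaged. The summed intensity of the list was 15062 to 18292 in LIN28B/Apcmin colon tumours, against 20985 to 24247 in Apcmin colon tumours, and 7760 to 15358 in LIN28B/Apcmin small intestinal tumours, against 24239 to 29273 in Apcmin small intestinal tumours. Of its 17 genes, Synpo2 was undetected on all 9 arrays. How far the amount of muscle in a sample bears on the other falls was not tested.

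Other markers moved with the genotype in single genes. For the counts that follow, 2.68% of all genes tested rose and 2.98% fell over both organs. Of 8 exocrine pancreas genes 3 fell and 0 rose: Clps, Zg16 and Sycn, a zymogen granule protein that differed by -4.55 ± 0.46 in the colon and -0.98 ± 0.50 in the small intestine. The digestive enzymes that define the exocrine pancreas, such as Cpa1, Cela2a and Prss2, were undetected on all 9 arrays. The elastase Cela1 was measured in both organs and did not pass in either, at -1.61 in the colon and 1.40 in the small intestine, while the test of that contrast between organs passed. The summed intensity of that list was 8183 to 12506 in LIN28B/Apcmin colon tumours, against 27943 to 28573 in Apcmin colon tumours, and 17643 to 18259 in LIN28B/Apcmin small intestinal tumours, against 30005 to 37904 in Apcmin small intestinal tumours. The mucus gene Zg16, counted in the goblet cell list too, is part of that sum. By its readings above, Zg16 made up the larger part of the sum in Apcmin tumours of both organs. The sum is thus no measure of pancreas tissue, whose part in these falls was not tested. Of 12 B and plasma cell genes 1 fell, the plasma cell chaperone Mzb1 (-2.03 ± 0.50), and 0 rose. The B cell genes Ms4a1 and Pax5 and the plasma cell genes Jchain and Prdm1 were undetected on all 9 arrays, the summed intensity was 3891 to 4585 in LIN28B/Apcmin colon tumours, against 6447 to 6550 in Apcmin colon tumours, and 4027 to 5019 in LIN28B/Apcmin small intestinal tumours, against 4915 to 6731 in Apcmin small intestinal tumours, and the part of plasma cells was not tested. In the gastric and Brunner gland list 3 of 13 rose, 0 of them shared. Each of them rose in the small intestine alone too, and 0 of the list passed in the colon alone. In the small intestine Atp4b, a subunit of the gastric proton pump, was undetected in Apcmin tumours and at least 10.3-fold higher in LIN28B/Apcmin tumours. Atp4a, another subunit, stood at -0.27 in the colon and 3.90 in the small intestine, and the test of that contrast between organs passed. The summed intensity of that list was 6184 to 6933 in LIN28B/Apcmin small intestinal tumours, against 3222 to 59707 in Apcmin small intestinal tumours, so that 1 Apcmin array stood far above the rest. Without Apcmin small intestinal replicate 2, 2 members rose and 4 fell. Car4, a carbonic anhydrase of absorptive cells, read 6.71, 6.32 and 7.01 on the LIN28B/Apcmin colon arrays, against 9.60 and 8.997 on the Apcmin colon arrays, and 6.44 and 5.22 on the LIN28B/Apcmin small intestinal arrays, against 7.67 and 11.77 on the Apcmin small intestinal arrays. The widest spread for Car4 lay between the Apcmin small intestinal arrays. T cell, MHC class II, red blood cell, adipocyte, glycolysis, oxidative phosphorylation and imprinted growth lists had 0 calls over both organs by limma. Without Apcmin small intestinal replicate 2, 6 of 9 MHC class II genes fell, and without Apcmin small intestinal replicate 1, 6 of 8 adipocyte genes fell.

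A smaller set of genes did not move alike. The difference between genotypes was itself unlike between the organs in 47 of 11230 genes (0.419%), 33 of them with opposite signs and 23 with arrays apart in opposite directions. Of the 480 shared genes 5 were among these 47, a larger share than the 0.419% of all genes. Both tests use the same estimate of a gene's spread, so that this share is no independent result. With Apcmin colon replicate 2 left out the number was 4, and with Apcmin small intestinal replicate 2 left out it was 370. Defa39, a Paneth cell defensin, read 4.95, 5.95 and 5.03 in LIN28B/Apcmin colon tumours, against 5.10 and 5.26 in Apcmin colon tumours, and 5.77 and 7.14 in LIN28B/Apcmin small intestinal tumours, against 12.02 and 12.47 in Apcmin small intestinal tumours. It fell in the small intestine by 5.79 and stood at 0.13 ± 0.39 in the colon, and its probe may also read near-identical defensins, which was not tested. Mptx1, a mucosal pentraxin of the colon, was the reverse case and differed by -4.39 ± 0.24 in the colon and -0.32 ± 0.24 in the small intestine.

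Other genes of this kind were near background in the organ where they did not differ. Tgm3, a transglutaminase, read 5.01, 4.57 and 4.66 in LIN28B/Apcmin colon tumours, against 7.07 and 7.32 in Apcmin colon tumours, and was undetected in the small intestine of both genotypes. Nmu, the neuropeptide neuromedin U, was undetected in the colon and at least 4.54-fold lower in LIN28B/Apcmin small intestinal tumours. Slc6a3, the dopamine transporter, was undetected in the colon and at least 3.79-fold higher in LIN28B/Apcmin small intestinal tumours. Aqp7, a channel for glycerol, was undetected in the colon and differed by -4.08 ± 0.35 in the small intestine. For these a contrast between organs includes that 1 organ did not express the gene above background.

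**Figure D4:**
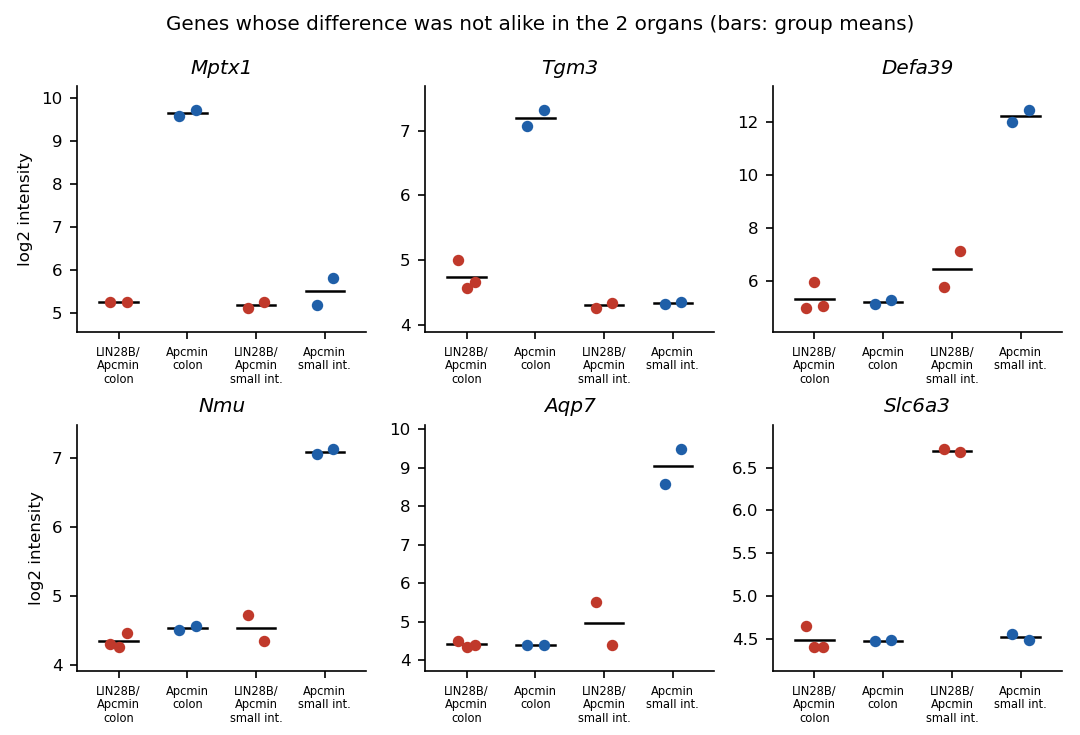
Normalised log2 intensity on each array for the 6 named genes whose difference was unlike in the 2 organs, with LIN28B/Apcmin (red) left of Apcmin (blue) in each organ and bars at group means. In each panel the groups are far apart in 1 organ and within 0.4 of each other, by their means, in the other.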

How the data were processed

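The deposited table of Illumina mouse bead arrays held, per the file headers, an average signal (intensity, not normalised by the authors) and a detection p-value for each probe and array. A second deposited table of processed intensity values gave an alternative. Arrays were grouped by genotype, tissue and organ labels. In R 4.3.3 with limma 3.58.1, signals under 25 were set to missing, background was corrected from the detection p-values (nec, offset 16), and log2 values were quantile normalised. Of 25697 probes 23978 had 1 gene symbol. Probes detected (p under 0.05) on at least 2 of the 14 arrays in the fit were used, the brightest probe on average standing for each gene, which left 11230 genes. LIN28B/Apcmin colon replicate 4 and the wild-type small intestinal replicate 1 were left out for low detection.

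The 14 arrays were fitted as 7 group means with no block (eBayes, residual df 7) and p-values were Benjamini-Hochberg adjusted over all genes. The contrast over both organs is the mean of the colon and small intestinal differences. Where all arrays of 1 group were undetected, a fold is a bound against the higher of the lowest detected signal and the probe's own. The number of arrays limits the precision. Replicate numbers did not pair the samples: 12 pairs had correlations of 0.000367 to 0.0858.

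Named genes are the 15 rises and 15 falls of largest lesser organ difference among shared genes, the called members of 29 lists with the same sign in both organs, a set of fixed genes, and the 3 per direction of smallest p for the difference between organs. Members and lists were chosen with earlier results of these data known. Alternatives covered normalisation, filters, offset, probes, blocks, sex and each array left out. The fit was tested on simulated data. Not analysed here were Lin28b, H19 and Igf2bp2. Figures used Python 3.11 with matplotlib 3.10.9.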

Additional observations from a re-analysis of the deposited data

Results flagged for a closer look

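LIN28B/Apcmin colon replicate 4 had 11.97% of probes detected, far from the other arrays of its group, and was left out. The difference between genotypes was unlike in the 2 organs, by the test of that difference itself, in 47 genes. The colon minus small intestinal difference was -4.07 for Mptx1, -2.41 for Tgm3, 5.92 for Defa39, 2.36 for Nmu, 4.09 for Aqp7 and -2.17 for Slc6a3, all log2 values, and those of Tgm3, Nmu, Aqp7 and Slc6a3 involve groups that were undetected. Igf2bp1 read 5.26 (mean normalised log2 intensity) in small intestinal tumours of LIN28B mice, a group outside the comparison, where it was detected on 2 of 2 arrays and in wild-type mucosa on 0 of 3.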

How the results depend on the processing

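The counts below are genes called over both organs, in the colon, in the small intestine, for the difference between organs, as shared, and in each organ alone, in that order. With only the 9 arrays they were 292, 57, 134, 6, 230 and 5. With all 16 arrays and no signal set to missing, limma called 0 in each, with 183, 176, 128 and 78 at an unadjusted p under 0.05 for the first 4. With no signal set to missing they were 295, 23, 193, 21, 233 and 1. Averaging arrays that share a title number gave 141, 27, 254 and 9, and 6 in each organ alone. Median scaling gave 315 in the small intestine. With no filter on detection the organs differed in 30 genes and 17 passed in each organ alone. A title number as random block gave 40 in each organ alone. The replicate block gave 1044 in the small intestine and, for numbers that do not pair the samples, 709 over both organs. Sex as a covariate, chosen after seeing the data, gave 35 in the colon, 289 in the small intestine, 10 between organs and 1 in each organ alone. Genotype plus organ on 9 arrays gave 86 over both organs. Leaving out 1 array gave 102 to 1074, 5 to 186, 37 to 1214, 4 to 370, 302 to 490 (8 runs that keep at least 2 arrays a group) and 0 to 46. The cause of these moves was not tested. Apc, Lgr5 and Igf2, which did not pass, changed sign. Apc was -0.12 with all 16 arrays, -0.030 under median scaling and between -0.17 (without LIN28B/Apcmin small intestinal replicate 1) and 0.28 with 1 array left out. Lgr5 was 0.032 without Apcmin colon replicate 2, 0.11 without LIN28B/Apcmin colon replicate 2, 0.29 without Apcmin small intestinal replicate 2 and 0.063 without LIN28B/Apcmin small intestinal replicate 2, in a range from -0.38 to 0.29. Igf2 ranged from -0.77 to 0.075, the last without LIN28B/Apcmin small intestinal replicate 2. Of 96 named genes called, 34 stayed called in all 9 runs that left out 1 of the arrays compared, 96 kept their direction there, and 43 stayed called with title numbers averaged. Signal near background limits genes that 1 group lacks.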

Other observations

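Small intestinal tumours of LIN28B mice without the Apcmin allele were not used in the comparison. On their 2 arrays, set against the 1 usable array of wild-type small intestinal mucosa, 216 of the 238 shared rises (90.8%) were higher, with a median of 0.79, and 215 of the 242 shared falls (88.8%) were lower, with a median of -0.92. Over all 11230 genes 54.0% were higher and 46.0% lower, with a median of 0.05. Those tumours came from older mice and share 1 title number, and the contrast is of tumour with mucosa, so that genotype, age and tissue cannot be told apart in it.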
